A study of Mus musculus with 9 samples.

Results

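Calcification inhibitors and genes that handle pyrophosphate, phosphate and adenosine were followed in aortic valve explants of newborn C57BL/6J mice. The set held 10 genes, chosen with earlier results of these data known: the secreted inhibitors Mgp and Tnfrsf11b, the nucleotide pyrophosphatases Enpp1, Enpp2 and Enpp3, the transporters Ank and Abcc6, the ectonucleotidase Nt5e, and the phosphate importers Slc20a1 and Slc20a2. Members were found as probe sets whose only listed symbol was that of a member. This matched 8 genes with 1 probe set each, and Enpp1 and Enpp2 were not analysed here. The array annotation named 19934 genes in all through probe sets with 1 symbol.

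Each of the 9 samples pooled the valves of 5 to 6 pups taken at postnatal day 1, and was cultured for 48 hours on floating filters in medium with 10% serum. The groups were 1 µmol/L all-trans retinoic acid (ATRA) given in DMSO, the retinoic acid receptor antagonist LE540 (dose and vehicle not stated in the labels), and DMSO alone (0.001%), with 3 pools each. All groups shared the C57BL/6J background, with no allele or transgene named, and the sex of the pups was not given. The question was how added retinoic acid, and an antagonist of its receptors, changed expression relative to DMSO. Values are RMA intensities from 1-colour Affymetrix arrays, on a linear scale, and changes are differences of mean log2 intensity with the standard error (SE) of a limma fit.

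Soft tissue stays free of mineral partly because extracellular pyrophosphate blocks the growth of calcium phosphate crystals. Pyrophosphate is made from ATP outside the cell by the enzyme that Enpp1 encodes, its supply depends on Ank and Abcc6, and tissue-nonspecific alkaline phosphatase (Alpl) breaks it down. Matrix Gla protein (Mgp) acts as a separate, vitamin K-dependent inhibitor, and mice that lack it calcify their arteries. Valve interstitial cells can take up a bone-like programme in calcific valve disease, and retinoic acid is a known regulator of cartilage and bone differentiation.

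Dhrs3, Tgm2 and Cyp26a1, which retinoic acid is known to induce, rose with ATRA (adjusted p = 0.0508, 0.000228 and 0.0512 in limma), whereas Rarb and Cyp26b1, known targets as well, did not pass (log2 change 2.25 and 0.87, limma adjusted p = 0.353 and 0.146). ATRA arrays lay above all DMSO arrays for these 5 genes, as for 4.97% of all probe sets. In LE540 vs DMSO 3 of the 5 were higher and 2 lower, and 0 passed, as 0.0299% of all probe sets did. The log2 changes were -0.57 for Rarb, -0.38 for Dhrs3, 0.03 for Cyp26a1, 0.14 for Tgm2 and 0.22 for Cyp26b1. Whether LE540 blocked the receptors in these pools was not tested. LE540 replicate 1 stood apart from the other 8 arrays: it lay at 63.7 on the first principal component, with the others between -21.5 and 13.9, and the values below that it moved most are given without it as well. All 10 valve interstitial markers lay above the array median in every ATRA and DMSO array, and 9 of 10 in every LE540 array. Their summed intensity was 27132 to 29792 in ATRA, 14452 to 23095 in LE540 and 19937 to 25102 in DMSO arrays. The 10 cardiomyocyte markers summed to 11452 to 19161, 11217 to 19226 and 11741 to 23694 in the same order of groups, and the 8 endothelial markers to 1792 to 5036, 1128 to 2706 and 1094 to 2702. The 8 macrophage markers summed to 1366 to 3102, 2192 to 3256 and 1686 to 3902, and the 5 Schwann cell and melanocyte markers to 802 to 857, 654 to 1364 and 541 to 829. Of the endothelial, valve interstitial and cardiomyocyte markers, 8 of 8, 8 of 10 and 1 of 10 were higher in ATRA vs DMSO. Their median log2 changes were 0.61, 0.38 and -0.27. In ATRA vs LE540 the counts were 8, 10 and 2, with medians of 0.43, 0.61 and -0.44. Macrophage markers were higher for 2 and 4 of 8 in these comparisons, and Schwann cell and melanocyte markers for 4 and 2 of 5. Over all probe sets 48.5% and 43.1% were higher. Only 1 of these markers passed, a valve interstitial one in ATRA vs LE540. Xist, which marks female cells, averaged 601.5 in ATRA, 1025 in LE540 and 2595 in DMSO pools. Every ATRA and every LE540 array lay below every DMSO array for Xist, as for 6.34% and 5.86% of all probe sets. The Y-linked genes Uty, Eif2s3y and Kdm5d averaged higher with both compounds than in DMSO, with groups that overlapped. Sex-linked transcripts thus differed along with treatment in the comparisons with DMSO, where sex and treatment cannot be told apart. The part of tissue composition and of sex in the results below was not tested.

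Enpp3 was the member that changed most, Ank was lower with both compounds without passing, and Slc20a1 holds a core hexamer of nuclear receptor binding sites. Their annotated start regions are shown because receptor binding near a start site is one route by which retinoic acid acts. Each is the RefSeq window of 300 bases, 250 before and 50 after the start, on build GRCm38.p6, 5′ to 3′ on the gene's strand, with these hexamers in capitals.
Enpp3 (chr10:24836146-24836445, minus strand): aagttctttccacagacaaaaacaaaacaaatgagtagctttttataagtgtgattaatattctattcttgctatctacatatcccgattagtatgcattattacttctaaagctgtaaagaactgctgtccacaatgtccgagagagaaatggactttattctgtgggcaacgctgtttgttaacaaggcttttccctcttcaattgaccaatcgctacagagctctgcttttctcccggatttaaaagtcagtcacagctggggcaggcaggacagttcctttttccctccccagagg
Ank (chr15:27466427-27466726, plus strand): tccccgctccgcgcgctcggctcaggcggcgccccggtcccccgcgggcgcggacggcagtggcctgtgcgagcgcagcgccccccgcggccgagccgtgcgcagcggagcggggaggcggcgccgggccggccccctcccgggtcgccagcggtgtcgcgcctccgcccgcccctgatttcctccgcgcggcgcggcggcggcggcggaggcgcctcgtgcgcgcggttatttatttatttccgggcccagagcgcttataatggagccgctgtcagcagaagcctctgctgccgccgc
Slc20a1 (chr2:129198523-129198822, plus strand): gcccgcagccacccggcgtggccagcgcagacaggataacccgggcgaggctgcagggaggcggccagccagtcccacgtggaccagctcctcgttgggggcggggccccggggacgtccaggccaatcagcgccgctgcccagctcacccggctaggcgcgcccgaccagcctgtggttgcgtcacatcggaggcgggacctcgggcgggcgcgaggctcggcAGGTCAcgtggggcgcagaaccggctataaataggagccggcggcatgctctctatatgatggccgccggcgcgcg

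Of the 8 measured members, 4 had a listed window, with 2 windows for Slc20a1. The search covered the core hexamer AGGTCA, the variant hexamer GGGTCA, the variant hexamer AGTTCA and the variant hexamer GGTTCA on both strands, no pair of which can match at the same position of a strand, and direct repeats of AGGTCA with spacers of 1, 2 or 5 bases. The windows of Enpp3, Ank and Nt5e held none of them. The Slc20a1 window shown held 1 hexamer, AGGTCA, at position -26 from the start, and the other Slc20a1 window held 1 on the opposite strand. Among all 32851 listed windows, 43.7% held at least 1 of the 4 hexamers and 16.3% held AGGTCA, so a match in Slc20a1 is common. The Enpp3 window had 40.7% G and C bases, against 78% for Ank and 73% for Slc20a1. Absence from these windows says only that the letters are not there.

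Across the set, 1 of 8 members passed in ATRA vs DMSO, 0 of 8 in LE540 vs DMSO and 1 of 8 in ATRA vs LE540, at a Benjamini-Hochberg adjusted p under 0.1 in limma, the threshold of the series. The member was Enpp3 in both cases, and it also exceeded the 2-fold change that the series asked for. Among all 23397 tested probe sets, 0.0812%, 0.0299% and 0.603% passed in the same comparisons, and 0.0598%, 0.0299% and 0.419% did so with a change over 2-fold. With the replicate number as a block, 29, 1 and 221 probe sets passed, against 19, 7 and 141 without it, and the members' counts were the same. At an unadjusted p under 0.05 there were 2, 1 and 2 members, and 4.7%, 8.8% and 9.54% of all probe sets. Members whose groups did not overlap were 1 higher and 1 lower in ATRA vs DMSO (4.97% and 6.34% of all probe sets), 0 higher and 3 lower in LE540 vs DMSO (6.74% and 5.86%), and 2 higher and 0 lower in ATRA vs LE540 (5.24% and 6.24%). The median log2 change of the members was 0.12, -0.10 and 0.13, beside -0.01, 0.02 and -0.03 over all probe sets. Comparisons with DMSO share the same 3 DMSO arrays, so their values stand side by side and are not independent.

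**Figure D1:**
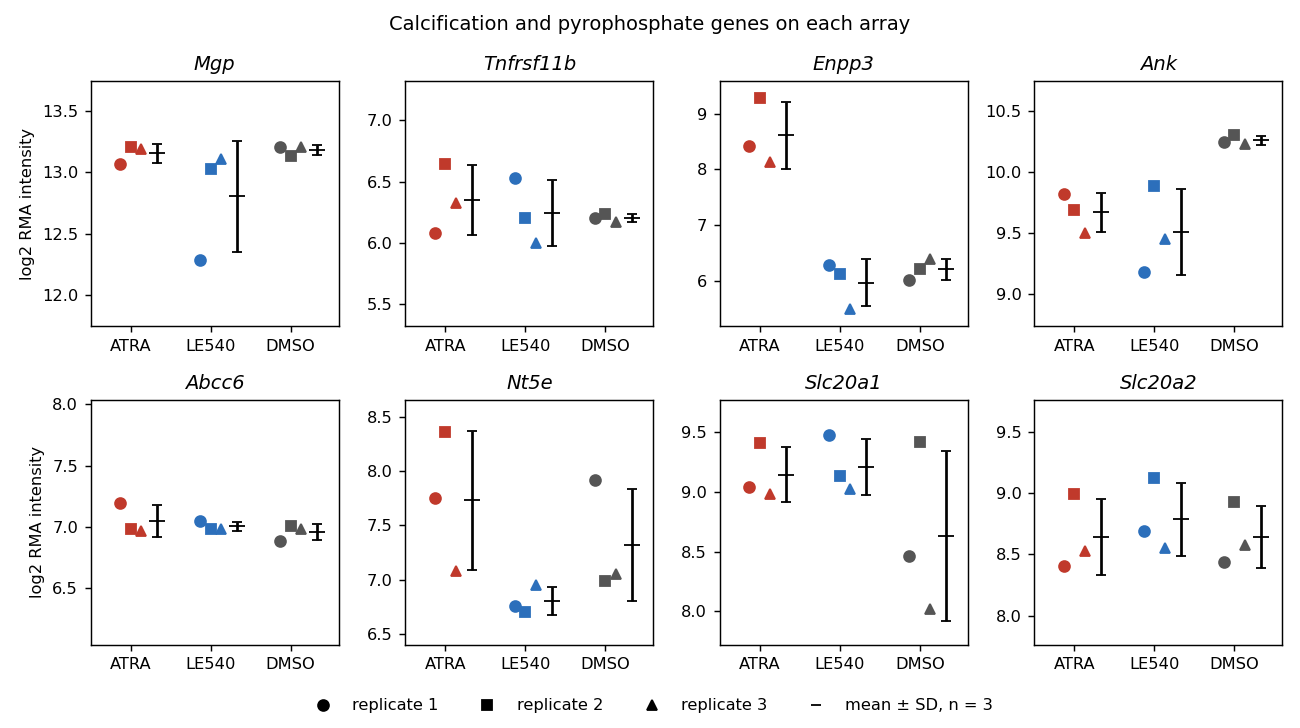
Log2 RMA intensity (vertical axis) of each measured member on the 9 arrays, by group, with the replicate number as the marker shape and the mean ± SD of 3 arrays in black; panels have their own axis ranges. Enpp3 was higher on all 3 ATRA arrays than on any other array, Ank was higher on all 3 DMSO arrays than on any other, and Mgp was lowest on LE540 replicate 1.

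Enpp3 encodes a cell-surface phosphodiesterase that splits extracellular nucleotides, known from basophils, mast cells and several epithelia. It was at 344, 623 and 281 intensity units on ATRA arrays, at 78.4, 69.6 and 45.2 on LE540 arrays and at 65.1, 74.5 and 84.7 on DMSO arrays. All 3 ATRA arrays lay above every LE540 and DMSO array, whereas LE540 and DMSO arrays overlapped. Group means were 416 ± 182 in ATRA, 64.4 ± 17.2 in LE540 and 74.8 ± 9.78 in DMSO arrays (SD, n = 3 each). Enpp3 was above the array median on 3 of 3 ATRA arrays and below it on all LE540 and DMSO arrays, where 1 LE540 array fell under the lower quartile.

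Enpp3 rose 5.27-fold in ATRA relative to DMSO (log2 change 2.40, SE 0.30, 95% confidence interval 1.71 to 3.09, limma adjusted p = 0.0538). Only 11 of the 23397 probe sets changed by more in that comparison. In ATRA relative to LE540 it rose 6.25-fold (log2 change 2.64, SE 0.30, interval 1.95 to 3.34, limma adjusted p = 0.0163), with 17 probe sets changing by more. With LE540 relative to DMSO its log2 change was -0.25 (interval -0.94 to 0.45, limma adjusted p = 0.82), and -0.41 without LE540 replicate 1. In bulk tissue, a change in the number of cells of a type and a change in RNA per cell cannot be told apart.

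The direction of the ATRA change was the same whichever array was left out, with log2 changes of 2.06 to 2.64 against DMSO. The call against DMSO was lost without DMSO replicate 1, 2 or 3 (limma adjusted p = 0.318, 0.238 and 0.211), ATRA replicate 1 (0.179) or LE540 replicate 2 (0.111), and in a fit of the ATRA and DMSO arrays alone (0.164), and that against LE540 in a fit of those groups alone (0.115).

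Markers of mast cells and basophils were a list added after the values of Enpp3 were seen. Of these, 5 of 9 were higher in ATRA vs DMSO and 7 of 9 in ATRA vs LE540, with 0 passing in either. Over all probe sets 48.5% and 43.1% were higher in these comparisons, and only 0.0812% and 0.603% passed. Their summed intensity was 759 to 997 in ATRA, 653 to 789.6 in LE540 and 734 to 786 in DMSO arrays. The subunits of the high-affinity IgE receptor were dim in every group. Fcer1a averaged 19.1 in ATRA, 17.7 in LE540 and 17.3 in DMSO arrays, and Ms4a2 averaged 42.1, 42.0 and 43.1. Kit, the stem cell factor receptor, which other cell types express as well, averaged 236 in ATRA, 136 in LE540 and 158 in DMSO arrays, a log2 difference of 0.44 from DMSO and 0.59 from LE540 (limma adjusted p = 0.999 and 0.758). The mast cell proteases were at 0.29 (Tpsab1), 0.19 (Cma1), 0.16 (Tpsb2), -0.04 (Cpa3) and -0.06 (Mcpt4) log2 in ATRA vs DMSO, and Hdc, the histamine-forming enzyme, at -0.07. The part of these cells in the Enpp3 values was not tested.

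The genes whose log2 values followed Enpp3 most closely over the 9 arrays were Cyp26a1, the hydroxylase that degrades retinoic acid (Pearson r = 0.975), St6gal1, a sialyltransferase (0.974), and Krt13, a keratin (0.968). These were the 3 highest among probe sets with 1 symbol. St6gal1 averaged 279 in ATRA, 89.1 in LE540 and 115 in DMSO arrays, and Krt13 averaged 98.5, 67.5 and 69.0. Over the 6 arrays without ATRA the same correlations were 0.502, 0.778 and 0.81. The 9 arrays share the groups and the high ATRA values, so the correlations describe these arrays only.

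Ank encodes a membrane protein needed for the export of pyrophosphate, and mice with a defective copy mineralize their joints. It was at 905, 826 and 727 on ATRA arrays, at 582, 947 and 702 on LE540 arrays and at 1212, 1260 and 1202 on DMSO arrays. Every array of either compound lay below every DMSO array, and ATRA and LE540 arrays overlapped. The group means were 819 ± 89.7, 744 ± 186 and 1225 ± 31.1 (SD, n = 3 each).

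Relative to DMSO, the log2 change of Ank was -0.59 with ATRA (SE 0.17, interval -0.97 to -0.20, limma adjusted p = 0.766) and -0.75 with LE540 (SE 0.17, interval -1.14 to -0.36, limma adjusted p = 0.369). Neither passed, although 676 and 647 of the 23397 probe sets changed by more. Groups without overlap occurred for 11.3% of all probe sets in ATRA vs DMSO and for 12.6% in LE540 vs DMSO. The change with LE540 passed without LE540 replicate 2 (log2 change -0.94, limma adjusted p = 0.0608). In that fit 98 of all probe sets passed in LE540 vs DMSO, against 7 in the main fit. Without LE540 replicate 1, the array that stood apart, it was -0.59 (adjusted p = 0.731). ATRA and LE540 differed by 0.16 log2 in Ank (interval -0.23 to 0.55, limma adjusted p = 0.807), by 0.0008 without LE540 replicate 1 and by 0.35 without LE540 replicate 2.

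Mgp, matrix Gla protein, is secreted by vascular and cartilage cells and binds calcium through modified glutamate residues. It was at 8584, 9460 and 9331 on ATRA arrays, at 4986, 8338 and 8823 on LE540 arrays and at 9007 to 9457 on DMSO arrays. LE540 replicate 1 was the lowest by far, and the other LE540 arrays also lay below every DMSO array. The 3 ATRA arrays overlapped with the DMSO arrays. Spread differed as well, with a coefficient of variation of 5.18% in ATRA, 28.3% in LE540 and 2.75% in DMSO arrays.

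The log2 change of Mgp was -0.03 with ATRA (interval -0.47 to 0.42, limma adjusted p = 0.999). With LE540 it was -0.38 (SE 0.20, interval -0.82 to 0.07, limma adjusted p = 0.605), and -0.12 without LE540 replicate 1 (SE 0.09). The same array had the lowest summed valve interstitial markers of all 9, at 14452, and the part of these in the low Mgp was not tested. ATRA exceeded LE540 by 0.35 log2 (interval -0.10 to 0.79, limma adjusted p = 0.625), or by 0.09 without that array.

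The genes most like Mgp over the 9 arrays were Tcf4, a basic helix-loop-helix transcription factor (Pearson r = 0.986), and the zinc finger genes Zfp595 (0.984) and Zfp207 (0.983). Tcf4 averaged 1273 in ATRA, 832 in LE540 and 1339 in DMSO arrays. Without LE540 replicate 1 the correlations were 0.765, 0.66 and 0.592.

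Tnfrsf11b, osteoprotegerin, is a soluble decoy receptor for the osteoclast factor RANKL, and mice that lack it develop arterial calcification. It was at 67.5, 99.95 and 79.9 on ATRA arrays, at 92.6, 73.7 and 63.9 on LE540 arrays and at 73.7, 75.2 and 71.9 on DMSO arrays. All 3 groups overlapped, and all 9 values lay between the lower quartile and the median of their array. The log2 change was 0.15 with ATRA (interval -0.24 to 0.54) and 0.04 with LE540 (interval -0.35 to 0.43), and neither passed (limma adjusted p = 0.999 and 0.953).

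Abcc6, a transporter best known from liver, supports ATP release and thereby the circulating supply of pyrophosphate. It was at 147, 127 and 125 on ATRA arrays, at 132, 127 and 127 on LE540 arrays and at 118 to 128 on DMSO arrays, close to the array medians of 124 to 128. The deposited value was the same, 126.77, on 4 of the 9 arrays, and 6.25% of tested probe sets had a value shared by at least 4 arrays. Its log2 changes of 0.09 with ATRA (interval -0.13 to 0.31) and 0.05 with LE540 (interval -0.17 to 0.27) had the narrowest intervals of the 8 members.

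**Figure D2:**
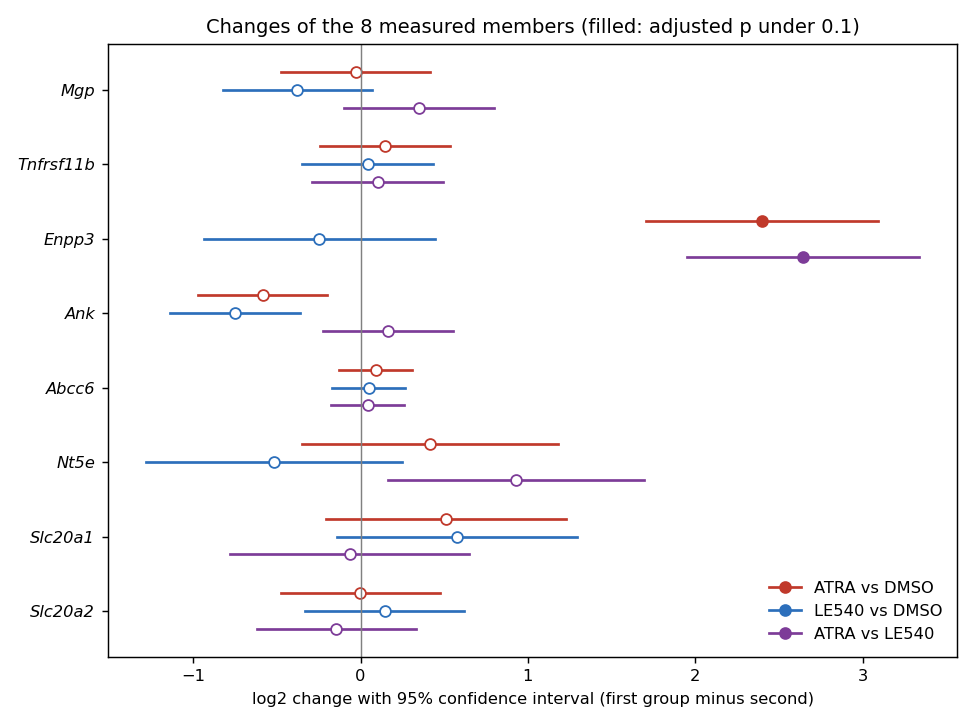
Log2 change of each measured member (points, horizontal axis) with its 95% confidence interval (lines) for ATRA against DMSO, LE540 against DMSO and ATRA against LE540; filled points passed at an adjusted p under 0.1. Enpp3 passed at 2.40 and 2.64, and the intervals of Ank against DMSO (-0.97 to -0.20 and -1.14 to -0.36) and of Nt5e in ATRA vs LE540 (0.16 to 1.69) lay to one side of 0 without passing.

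Nt5e, the surface enzyme CD73, turns AMP into adenosine, and its loss in humans leads to arterial calcification. It was at 215, 329.7 and 135 on ATRA arrays, at 108, 104 and 124 on LE540 arrays and at 242, 127 and 133 on DMSO arrays. LE540 arrays lay below every ATRA and every DMSO array, and ATRA and DMSO arrays overlapped. Mean intensities were 227 ± 97.7 in ATRA, 112 ± 10.4 in LE540 and 167 ± 64.7 in DMSO arrays (SD, n = 3 each).

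The direct comparison gave the largest difference in Nt5e, 0.93 log2 higher with ATRA than with LE540 (interval 0.16 to 1.69, unadjusted p = 0.0227 and adjusted p = 0.42 in limma). Against DMSO it was at 0.41 with ATRA (interval -0.35 to 1.18, limma adjusted p = 0.999) and at -0.51 with LE540 (interval -1.28 to 0.25, limma adjusted p = 0.666). None of these passed. DMSO replicate 1 and ATRA replicate 2 were the high arrays. Without DMSO replicate 1 the change was 0.71 with ATRA and -0.22 with LE540, and without ATRA replicate 2 ATRA was 0.10 above DMSO and 0.61 above LE540. Leaving out ATRA replicate 3, the low ATRA array, gave 0.74 and 1.25, and leaving out DMSO replicate 2 gave 0.25 with ATRA. In ATRA vs LE540, 11.5% of all probe sets had groups without overlap, among them those of Nt5e and Enpp3.

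Slc20a1, the sodium-dependent phosphate importer PiT-1, is needed for phosphate-driven mineralization of vascular smooth muscle cells in culture. It was at 526, 677 and 506 on ATRA arrays, at 709, 559 and 521 on LE540 arrays and at 352, 681 and 260.3 on DMSO arrays. DMSO replicates 1 and 3 were below all arrays of either compound, and DMSO replicate 2 was above all of them but 1. The log2 change was 0.51 with ATRA (interval -0.20 to 1.23, limma adjusted p = 0.999) and 0.58 with LE540 (interval -0.14 to 1.29, limma adjusted p = 0.615), and neither passed. Without DMSO replicate 2 it was 0.90 with ATRA and 0.97 with LE540, and without DMSO replicate 3 it was 0.21 and 0.27, also without passing.

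Slc20a2, the related importer PiT-2, is a gene whose loss causes familial brain calcification in humans. It was at 339, 510.1 and 369.7 on ATRA arrays, at 414, 557 and 374 on LE540 arrays and at 346, 486 and 381 on DMSO arrays. Replicate 2 was the highest array in each of the 3 groups, and the groups overlapped. The log2 change was -0.0011 with ATRA (interval -0.48 to 0.48, limma adjusted p = 0.9998) and 0.14 with LE540 (interval -0.33 to 0.62, limma adjusted p = 0.852). With the replicate number as a block, its SE was 0.10 in place of 0.21 and it still did not pass (adjusted p = 0.9997 and 0.599).

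Endothelial markers followed the replicate number in the same way. Replicate 2 was the highest in all 3 groups for 7 of the 8 endothelial markers, for Slc20a2 alone among the 8 members, and for 7.03% of all tested probe sets. The summed endothelial level on the arrays numbered 2 was 5036 in ATRA, 2706 in LE540 and 2702 in DMSO, against 1094 to 1903 on the other 6. Its part in the values of Slc20a2 was not tested.

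**Figure D3:**
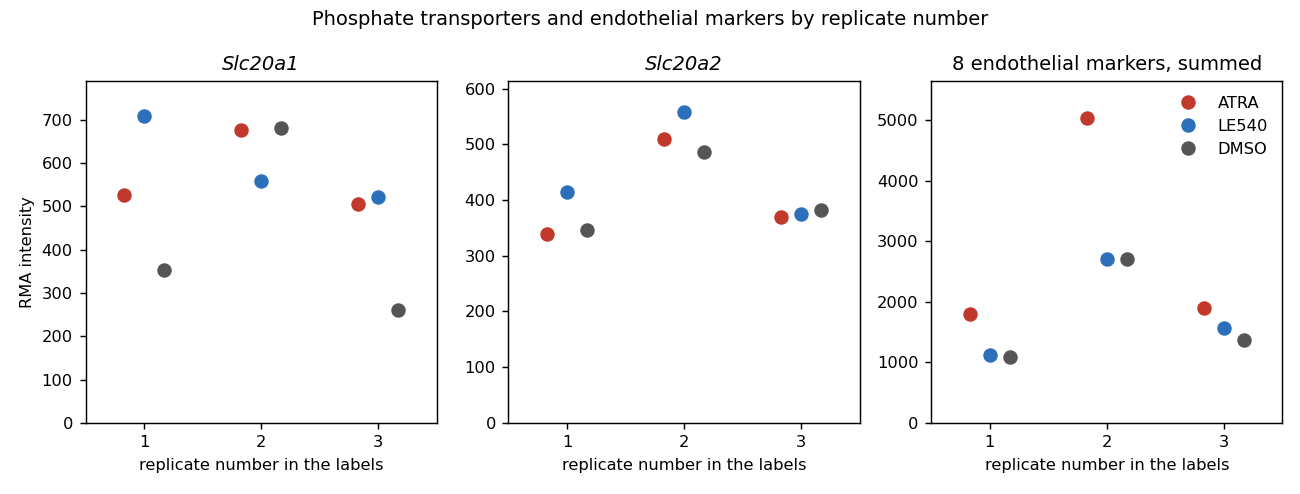
RMA intensity (vertical axis, from 0) of Slc20a1 and Slc20a2 and the summed intensity of 8 endothelial markers, by the replicate number of the labels, with a point for each array of ATRA, LE540 and DMSO. Replicate 2 is highest in every group for Slc20a2 (510.1, 557 and 486) and for the endothelial sum (5036, 2706 and 2702), whereas for Slc20a1 LE540 replicate 1 is above LE540 replicate 2 (709 and 559).

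Other genes of the same pathways were taken from 6 lists with 41 measured genes. In ATRA vs DMSO and in LE540 vs DMSO 0 of 41 passed in limma, and in ATRA vs LE540 1 of 41 did. Over all probe sets 0.0812%, 0.0299% and 0.603% passed, so 0 passing in a list says little about that list. Median log2 changes of the 41 were -0.02, -0.05 and 0.05, beside -0.01, 0.02 and -0.03 over all probe sets. Groups did not overlap for 10, 5 and 8 of the 41, at 11.3%, 12.6% and 11.5% over all probe sets.

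The gene that passed was Plpp1, a surface phosphatase that breaks down lysophosphatidic acid, the lipid that the enzyme encoded by Enpp2 makes. It was at 817, 829 and 932 on ATRA arrays, at 475, 571.5 and 583 on LE540 arrays and at 705, 699.7 and 733 on DMSO arrays, and no 2 groups overlapped. It rose by 0.67 log2 in ATRA relative to LE540 (SE 0.11, interval 0.42 to 0.91, limma adjusted p = 0.0592), with 0.27 in ATRA vs DMSO and -0.40 in LE540 vs DMSO, neither of which passed. The call was lost without any 1 of DMSO replicates 1, 2 and 3, ATRA replicates 1, 2 and 3 and LE540 replicate 1 (adjusted p = 0.102 to 0.188), and in a fit of the ATRA and LE540 arrays alone (0.255) or with a trended robust prior (0.106). The other lysophosphatidic acid genes did not pass, the largest changes being those of the phosphatase Plpp3, at -0.82 in LE540 vs DMSO and 0.89 in ATRA vs LE540. LE540 replicate 1 had 84.2 units of Plpp3, against 271 to 311 on the other LE540 arrays, and without it these changes were -0.22 and 0.29.

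The list of pyrophosphate and phosphate enzymes had 10 genes, among them the channel genes Panx1 and Panx3, which are not enzymes. Of the 10, 5 were higher and 5 lower in each of the 3 comparisons, and 0 passed. Alpl, the phosphatase that destroys pyrophosphate, had the largest change in ATRA vs DMSO, at 0.43 log2 (interval -0.18 to 1.04, limma adjusted p = 0.999). Its values were 136, 262 and 115 on ATRA arrays, 112, 118 and 100.1 on LE540 arrays and 131, 118 and 109 on DMSO arrays, so that ATRA replicate 2 alone stood out. Enpp6, a choline-specific phosphodiesterase, was at -0.35 in LE540 vs DMSO (limma adjusted p = 0.541), and at -0.22 without LE540 replicate 1. Ppa2, the mitochondrial pyrophosphatase, was at 0.66 in ATRA vs LE540 (interval 0.11 to 1.20, limma adjusted p = 0.422), and at 0.39 without that array.

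The 7 measured genes of adenosine and ATP handling gave 0 that passed. Ada, the deaminase that removes adenosine, was at 274, 275 and 184 on ATRA arrays, at 94.4, 166 and 141 on LE540 arrays and at 166, 92.6 and 140.3 on DMSO arrays. Its ATRA arrays lay above all 6 others, with log2 changes of 0.89 against DMSO (SE 0.28, limma adjusted p = 0.864) and 0.88 against LE540 (SE 0.28, limma adjusted p = 0.347). Without LE540 replicate 1 the log2 change of Ada against LE540 was 0.65. Slc29a1, an adenosine carrier, was lower with ATRA, at -0.50 against DMSO and -0.49 against LE540 (SE 0.14 each, limma adjusted p = 0.70 and 0.271). It was named after its values were seen. Adk, which phosphorylates adenosine, had the largest change in LE540 vs DMSO, at -0.18 (limma adjusted p = 0.855), and 0.08 without LE540 replicate 1.

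The 4 phosphate transport genes included renal and intestinal importers of the Slc34 family and the exporter Xpr1. Slc34a3 was at 0.18 in ATRA vs DMSO, Xpr1 at -0.21 in LE540 vs DMSO and Slc34a2 at -0.13 in ATRA vs LE540 (0.0054 without LE540 replicate 1), and 0 of 4 passed. Of the ligands and receptors around osteoprotegerin 0 of 4 passed, with Tnfrsf11a, the receptor RANK, at -0.17 with ATRA and -0.16 with LE540, and the death receptor Tnfrsf10b at -0.23 in ATRA vs LE540. LE540 replicate 1 had 548 units of Tnfrsf10b, against 173 and 304 on the other LE540 arrays, and without it the difference was 0.19.

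Vitamin K-dependent and circulating inhibitors had 0 of 8 passing, with the widest spread. Ucma, a Gla-rich protein of cartilage, was at 127, 106 and 145 on ATRA arrays, at 219 to 255 on LE540 arrays and at 962, 129 and 242 on DMSO arrays. DMSO replicate 1 alone carried the high DMSO mean, and the change of -1.31 log2 with ATRA did not pass (interval -2.66 to 0.03, limma adjusted p = 0.999). Ahsg, the serum inhibitor fetuin-A, was at 864, 191 and 383 on ATRA arrays, at 135, 72.1 and 300.1 on LE540 arrays and at 497, 119 and 401 on DMSO arrays. It was lowest on replicate 2 within each group, and its changes of -1.01 in LE540 vs DMSO and 1.48 in ATRA vs LE540 did not pass (limma adjusted p = 0.69 and 0.581).

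**Figure D4:**
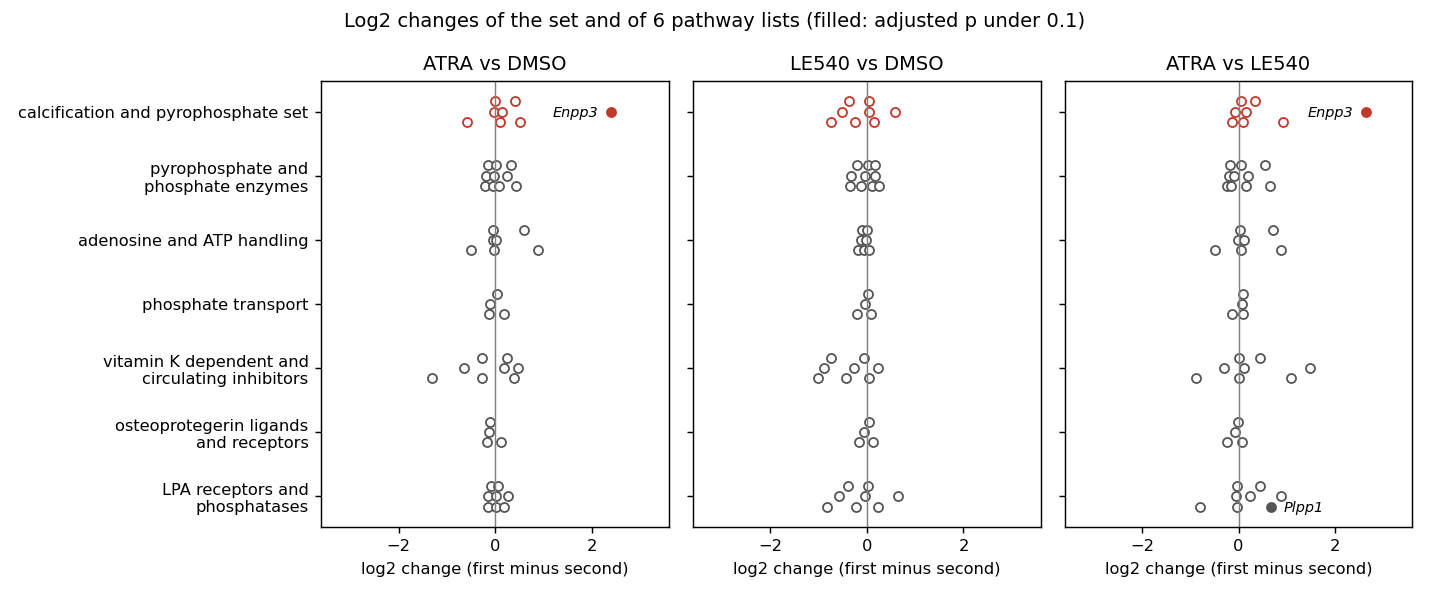
Log2 change (horizontal axis) of each measured gene of the set (red, 8 genes) and of 6 pathway lists (grey, 41 genes) for ATRA against DMSO, LE540 against DMSO and ATRA against LE540; vertical offsets within a row only separate the points, and filled points passed at an adjusted p under 0.1. Enpp3 and Plpp1 are the filled points, and Ucma at -1.31 is the lowest point in ATRA vs DMSO.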

How the data were processed

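The authors deposited 1 RMA intensity for each probe set on each array, computed with Affymetrix Expression Console 1.1 and RMA, per the submitters' processing notes. RMA corrects background, quantile-normalizes arrays and summarizes probes, and can compress changes of dim probe sets. Annotation and genome build are not given in the sources used here. Values of 4.09 to 17798 showed a linear scale, so log2 was taken with no pseudocount. Of 28270 rows, 23397 had a listed gene (21780 had 1 symbol and 1617 several) and were tested together. The number of arrays limits the precision.

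limma 3.58.1 in R 4.3.3 fitted 3 groups over 9 arrays (6 residual and 2.72 prior degrees of freedom), two-sided, with Benjamini-Hochberg adjustment. The fit was tested on simulated data. Members and lists were chosen with earlier results of these data known. Named genes were all members, the passing genes of each pathway list and its largest change per comparison, 5 retinoic acid response genes, and the 3 genes most correlated with Enpp3 and Mgp. Slc29a1, Xist, the Y-linked genes and the mast cell and basophil markers lie outside this rule and were named after their values were seen. Genes with several probe sets were represented by the brightest in lists.

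Deviations of equally numbered arrays correlated at r = 0.143, 0.342 and 0.22 in ATRA and DMSO. In ATRA and LE540 they correlated at 0.261, 0.282 and 0.269, whereas LE540 and DMSO gave 0.00946, 0.215 and 0.126. The labels do not say what equal numbers share, so a pairing of the pools is not established. The main fit left the replicate number out, and the block was an alternative. Alternatives were the samples in the fit, quantile normalization, a filter on dim probe sets, a pseudocount of 16, a trended robust prior, array weights, the replicate block, an adjusted p under 0.05 and leaving out each array.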

Additional observations from a re-analysis of the deposited data

How the results depend on the processing

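Of 384 values of the 8 members under 16 alternatives, 359 kept their direction and their side of the threshold, 7 (all Enpp3) lost the call, 1 (Ank) gained it and 17 changed sign without passing; the cause was not tested. The number of members passing was 0 in ATRA vs DMSO and in ATRA vs LE540 when only the 2 groups compared were fitted, and 0 in ATRA vs DMSO at an adjusted p under 0.05. With any 1 array left out it was 0 to 1 in ATRA vs DMSO, 0 to 1 in LE540 vs DMSO and 1 in ATRA vs LE540. With the replicate number as a block, no call of a member changed. Enpp3 kept log2 changes of 2.40 (limma adjusted p = 0.0585) and 2.64 (0.0228), and 1, 0 and 1 members passed.

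Sign changes concerned small values. Slc20a2 in ATRA vs DMSO was 0.024 after quantile normalization and 0.038 with array weights, Tnfrsf11b in LE540 vs DMSO was -0.023 and Ank in ATRA vs LE540 -0.012 with array weights. Leaving out arrays gave, in ATRA vs DMSO, -0.055 to 0.015 for Mgp, -0.0024 to 0.28 for Tnfrsf11b and -0.18 to 0.14 for Slc20a2, and in LE540 vs DMSO -0.10 to 0.17 for Tnfrsf11b and -0.023 to 0.28 for Slc20a2. In ATRA vs LE540 it gave -0.046 to 0.25 for Tnfrsf11b, -0.031 to 0.084 for Abcc6, -0.20 to 0.065 for Slc20a1 and -0.32 to 0.022 for Slc20a2. Without LE540 replicate 1, 3 of the pathway genes named changed sign in both comparisons with LE540, in an alternative chosen after seeing the data: Adk to 0.079 in LE540 vs DMSO and -0.13 in ATRA vs LE540, Slc34a2 to -0.12 and 0.0054, and Tnfrsf10b to -0.30 and 0.19.

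Over all probe sets 19, 7 and 141 passed in the 3 comparisons, with 4 to 71, 0 to 297 and 25 to 278 under the alternatives; the block gave 29, 1 and 221. All 8 members passed the filter on dim probe sets. Signal over background is unknown for Enpp3 in LE540 and DMSO arrays and for Tnfrsf11b, so the size of the Enpp3 change is uncertain.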
